A study of Rattus norvegicus with 18 samples.

Results

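The miRNA repertoire of lean rat liver was described from the 6 lean libraries of a set of 18, chosen by their label and not by any measured value. The table lists 401 mature miRNA arms, and 374 of them had a count in at least 1 lean library. Small RNA was sequenced from livers of lean rats and of 2 groups of obese rats of the Zucker diabetic fatty (ZDF) line, one on vehicle and one on colesevelam, with 6 libraries in each group. The lean rats are labelled with the strain ZDF-Leprfa/Crl, the same as the obese rats, with an age of 8 weeks, the tissue liver and the phenotype lean. Their genotype at the leptin receptor gene is not stated in the labels used here, no agent is named for them, and they are known by their name and phenotype label alone. The labels do not tie libraries to separate rats, so the spread between libraries may be technical in part. No comparison with the obese groups was made.

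MicroRNAs are short RNAs cut from hairpin precursors, whose 5' and 3' arms (5p and 3p) can each enter an Argonaute protein and guide it to messenger RNAs. Pairing runs mainly through the seed, the stretch just after the first base, so miRNAs with the same seed form a family that can act on the same targets. In liver, miR-122 is known as the hepatocyte's own abundant miRNA and acts on cholesterol and lipid metabolism, and a few others such as miR-192, miR-148a and miR-22 are known to be plentiful.

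The sequences below belong to the miRNAs that held most of the counts and to the relatives they share a seed with. They are RefSeq mature sequences (rat assembly GRCr8), written 5' to 3', with the seed (bases 2 to 8) in capitals. The first set holds leading miRNAs outside the larger families, and miR-194-5p is shown as the neighbour of miR-192-5p and miR-122-3p as the other arm of miR-122.
miR-192-5p: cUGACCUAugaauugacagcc
miR-194-5p: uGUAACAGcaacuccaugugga
miR-22-3p: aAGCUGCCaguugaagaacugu
miR-21-5p: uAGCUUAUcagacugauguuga
miR-122-5p: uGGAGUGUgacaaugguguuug
miR-122-3p: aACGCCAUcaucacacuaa
miR-378a-3p: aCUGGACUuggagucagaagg
miR-10a-5p: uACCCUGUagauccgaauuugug
miR-143-3p: uGAGAUGAagcacuguagcuca
miR-27b-3p: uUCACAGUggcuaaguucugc

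The second set shows the families in which several abundant miRNAs shared a seed: let-7, miR-30, miR-148, miR-26, miR-25/92 and miR-101. miR-30d-5p, the miR-30 member next in level to miR-30a-5p, is named only.
let-7f-5p: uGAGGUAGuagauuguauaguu
let-7a-5p: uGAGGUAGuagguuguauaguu
let-7c-5p: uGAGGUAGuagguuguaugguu
let-7g-5p: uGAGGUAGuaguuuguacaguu
let-7b-5p: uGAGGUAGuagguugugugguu
miR-30a-5p: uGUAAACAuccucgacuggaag
miR-30e-5p: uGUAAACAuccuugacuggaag
miR-30c-5p: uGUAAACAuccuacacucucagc
miR-148a-3p: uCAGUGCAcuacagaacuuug
miR-148b-3p: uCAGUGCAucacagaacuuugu
miR-26a-5p: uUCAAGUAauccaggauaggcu
miR-26b-5p: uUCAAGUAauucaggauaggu
miR-92a-3p: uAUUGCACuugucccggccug
miR-25-3p: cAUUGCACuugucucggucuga
miR-101b-3p: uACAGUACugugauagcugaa
miR-101a-3p: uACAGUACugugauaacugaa

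In GRCr8, miR-192-5p lies at chr1:212994232-212994252 on the plus strand and miR-194-5p at chr1:212994038-212994059 on the same strand, with a second copy of miR-194-5p on chromosome 13 within Iars2. miR-22-3p lies at chr10:60805387-60805408 (plus), miR-21-5p at chr10:71902653-71902674 (minus), miR-148a-3p at chr4:81664447-81664467 (minus) and miR-10a-5p at chr10:81779730-81779752 (plus). No RefSeq gene other than their own spans these 4 or miR-192-5p. Others lie within the bounds of a longer gene, with strand not compared: miR-26a-5p (chr8:127633063-127633084, plus) in Ctdspl, miR-378a-3p (chr18:57128925-57128945, minus) in Ppargc1b, which encodes the coactivator PGC-1beta, miR-27b-3p (chr17:1819163-1819183, minus) in Aopep, and miR-143-3p (chr18:57371373-57371394, minus) in the long noncoding RNA gene Carmn. The miR-92a-3p sequence occurs on chromosomes 15 and X, and that of let-7f-5p on chromosomes 17 and X, so their counts cannot be assigned to 1 precursor.

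The 6 lean libraries held 110357, 881457, 198464, 458613, 152413 and 171322 miRNA counts, in the order of their sample numbers. Of the 12 obese libraries, 2 held more counts than the shallowest lean one, and none more than the second shallowest. A total of 252 to 323 arms had a count in a library, and 201 had one in all 6. These 201 arms held 99.9% of the counts. When each library was set to the depth of the shallowest, 234 to 253 arms per library, and 177 in all 6, would be expected to have a count. The 58 arms seen in a single library included 25 seen only in library 2, the deepest. The 27 arms with no count had at most 3.40 to 27.2 CPM (the count over the library total, as parts in 1e6) in a library, the level that 3 counts would give. All pairs of libraries differed by more than counting error (chi-square per degree of freedom 3.59 to 375), so none was treated as deposited more than once.

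A few miRNAs held most of the counts. The 10 with the highest mean share held 71.7% ± 3.14 of a library's counts (mean ± SD, n = 6 libraries here and below), and the 20 highest held 88.8% ± 0.867. It took 5 miRNAs to reach 50% of the mean shares, 22 to reach 90% and 84 to reach 99%. At the other end, 265 of the 374 arms with a count had a mean share under 0.01%. The number needed for 90% ran only from 20 to 23 between libraries. Shares compare different miRNAs only as far as each was captured alike when the libraries were made, which was not tested.

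**Figure D1:**
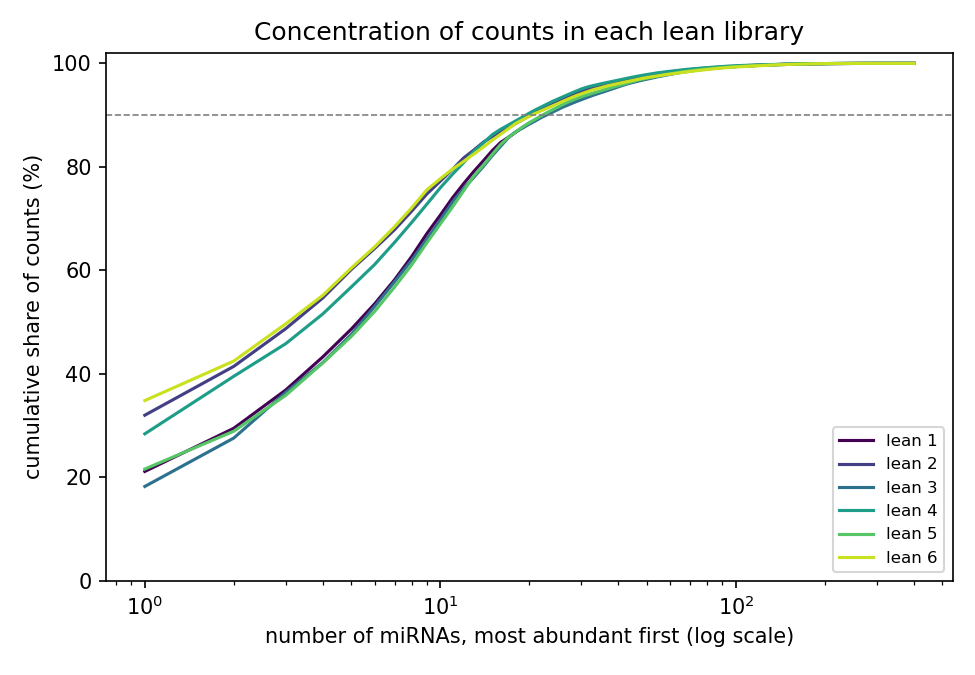
Cumulative share of a library's miRNA counts (vertical axis, %) against the number of miRNAs, most abundant first (horizontal axis, log scale), 1 line per lean library, with a dashed line at 90%. The lines start between 18.2% and 34.8% for the first miRNA and cross 90% between 20 and 23 miRNAs.

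The most abundant miRNA was miR-192-5p, known from liver, gut and kidney epithelium and as a target of p53. It held 21.1%, 31.99%, 18.2%, 28.4%, 21.6% and 34.8% of the counts in libraries 1 to 6 (26.02% ± 6.68) and ranked first in each. Libraries 2, 4 and 6 were the high ones, and even the lowest value, in library 3, lay above every value of any other miRNA. On average it held 3.10 times the mean share of the second miRNA, 31.9 times that of the one ranked 20 and 1437 times that of the one ranked 100.

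Second came miR-22-3p, a widely expressed miRNA tied to energy and lipid metabolism in liver and heart. Its shares were 8.34%, 9.44%, 8.84%, 11.1%, 7.31% and 5.29% (8.39% ± 1.98). It stood second in libraries 1, 2, 4 and 5, rank 3 in library 3 and rank 5 in library 6. Next were miR-148a-3p, which acts on the LDL receptor and the cholesterol transporter ABCA1, and miR-21-5p, an almost ubiquitous miRNA that rises in growth, inflammation and fibrosis. miR-148a-3p held 4.41%, 7.29%, 4.73%, 6.32%, 4.26% and 7.64% (5.77% ± 1.5), and miR-21-5p held 5.40%, 5.92%, 4.20%, 5.73%, 5.14% and 7.20% (5.60% ± 0.989). Their order was not stable, since miR-148a-3p was the higher in 4 of 6 libraries and ranked between 2 and 9.

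miR-26a-5p, linked to insulin sensitivity and the cell cycle, held 4.89%, 5.53%, 5.74%, 5.23%, 4.85% and 3.64% (4.98% ± 0.744). miR-122-5p, the hepatocyte miRNA, followed at rank 6 by its mean, with 6.37%, 1.54%, 9.35%, 2.62%, 6.23% and 2.15% (4.71% ± 3.09). Its values fell apart by library: 1, 3 and 5 lay at 6.23% or more and 2, 4 and 6 at 2.62% or less, and its rank ran from 2 in library 3 to 13 in library 2. miR-378a-3p, encoded within the gene for PGC-1beta and tied to mitochondrial metabolism, varied less, with 4.62%, 3.60%, 5.48%, 3.52%, 4.68% and 3.87% (4.29% ± 0.767). miR-92a-3p, a member of the miR-17-92 cluster, varied about as much as miR-122-5p, with 7.41%, 2.20%, 5.41%, 2.26%, 6.95% and 1.14% (4.23% ± 2.70), and again libraries 1, 3 and 5 were the high ones.

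Rank 9 was held by miR-10a-5p, encoded among the Hox genes, with 3.35%, 3.61%, 3.51%, 3.85%, 3.29% and 5.50% (3.85% ± 0.831), where library 6 stood above the other 5. Rank 10 was held by miR-143-3p, known from smooth muscle and fibroblasts, with 3.59%, 4.07%, 3.71%, 4.36%, 3.65% and 3.49% (3.81% ± 0.331). miR-143-3p was in fact the higher of these neighbours in 5 of 6 libraries, all but library 6. Of the 20 pairs of neighbours among the 21 highest miRNAs, only 3 kept their order in all 6 libraries: miR-192-5p over miR-22-3p, miR-30a-5p over miR-27b-3p, and miR-30e-5p over miR-126a-5p. Most single ranks below the first are thus not resolved by these libraries.

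**Figure D2:**
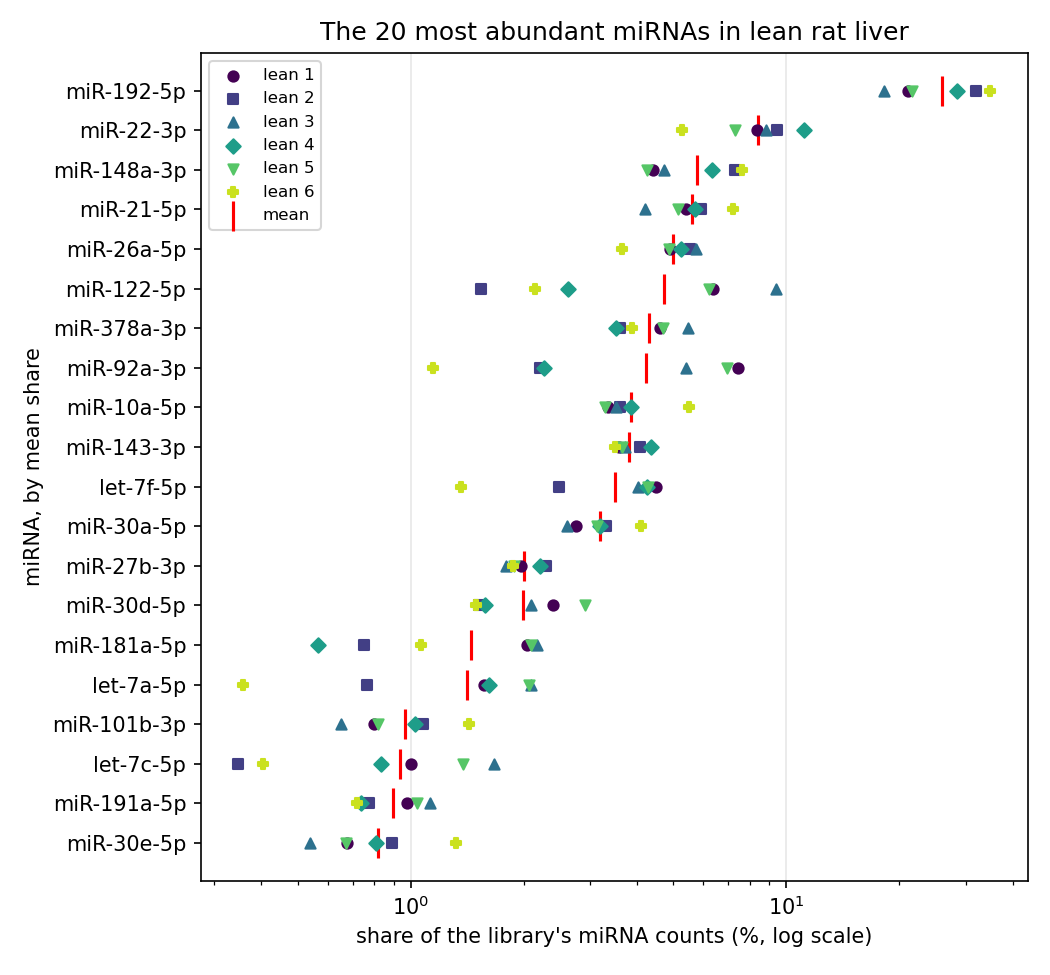
Share of a library's miRNA counts (horizontal axis, %, log scale) for the 20 miRNAs of the highest mean share (vertical axis), with 1 symbol per lean library and a red bar at the mean. miR-192-5p stands apart at 18.2% to 34.8%, while miR-122-5p, miR-92a-3p and the let-7 miRNAs spread widely and miR-143-3p and miR-27b-3p lie close together.

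The ranks from 11 to 20 were filled mainly by the let-7 and miR-30 families. let-7 miRNAs are known for holding back growth and stem cell programmes, and let-7f-5p led them with 3.49% ± 1.27 (1.36% to 4.51%), before let-7a-5p with 1.41% ± 0.705 and let-7c-5p with 0.938% ± 0.524. All 3 were lowest in library 2 or library 6. miR-30a-5p held 3.18% ± 0.529, miR-30d-5p 1.99% ± 0.574 and miR-30e-5p 0.817% ± 0.274. Between them stood miR-27b-3p, tied to lipid metabolism (2.00% ± 0.202), miR-181a-5p, known from lymphocyte development (1.45% ± 0.736), miR-101b-3p, which acts on the histone methyltransferase Ezh2 (0.966% ± 0.275), and miR-191a-5p (0.896% ± 0.174). In all, 16 miRNAs had a mean share over 1%.

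Grouping by seed changed the order. The 374 arms with a count carried 298 different seeds, and 44 of those seeds were shared by 2 or more arms, 120 arms in all with 36.9% of the counts. miR-215, grouped with miR-192 in the family lists, had no row in the table. The seeds of miR-192-5p and miR-22-3p belonged to a single arm each there, so these 2 remained the largest at 26.02% and 8.39%. The let-7 seed GAGGUAG, carried by 9 arms, came next with 8.38%, 4.36%, 9.47%, 7.92%, 9.22% and 2.65% (7.0% ± 2.82), of which let-7f-5p made up 50.8%. Library 6 had the lowest let-7 level and library 3 the highest.

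The miR-30 seed GUAAACA was carried by 4 arms, and the table had no row for miR-30b-5p. This seed held 6.58% ± 0.681 (5.74% to 7.55%), above miR-21-5p and miR-122-5p although no single member was among the 10 highest. Its leader miR-30a-5p was 4.02-fold higher than miR-30e-5p (range over libraries 3.12 to 4.84). In other families 1 member held nearly everything. The miR-148/miR-152 seed CAGUGCA held 5.97% ± 1.49, with miR-148a-3p 34.0-fold over miR-148b-3p (21.9 to 52.5). The miR-26 seed UCAAGUA held 5.42% ± 0.756, with miR-26a-5p 11.2-fold over miR-26b-5p (8.27 to 12.6). The miR-25/92 seed AUUGCAC held 4.37% ± 2.71, of which miR-92a-3p made up 95.4%. miR-101b-3p, by contrast, was only 2.52-fold over miR-101a-3p, and that ratio held between 2.31 and 2.74 in the 6 libraries.

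Levels within genomic clusters ranged from near even to far apart. By the table's own coordinates, whose build is not given in the sources used here, 191 arms fell into 54 clusters. These were neighbours on 1 strand at most 10 kb apart. Some were only the arms of 1 hairpin under unlike names, such as miR-125b-5p with miR-125b-2-3p and miR-30c-5p with miR-30c-2-3p. The 54 thus overstates the clusters of several precursors. The highest arm had over 10 times the mean share of the next in 21 of the clusters and under 2 times in 6. The next arm could be the other arm of the same hairpin, as for miR-22. Among the even ones, miR-30e-5p was 1.34-fold over miR-30c-5p on chromosome 5 (1.07 to 2.10), and miR-221-3p, at 0.00793% ± 0.00213, lay beside miR-222-3p, at 0.00621% ± 0.00245. The miR-192/miR-194 cluster on chromosome 1 held 26.4% ± 6.75 of the counts, nearly all of it miR-192-5p, which was 63.9-fold higher than miR-194-5p (54.7 to 73.0). miR-194-5p itself held 0.401% ± 0.0709 and also has the copy on chromosome 13. The miR-22 cluster on chromosome 10 held 8.40% ± 1.98, all but a trace of it miR-22-3p.

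The let-7a/f/d cluster on chromosome 17 held 5.12% ± 2.03, with let-7f-5p 2.69-fold over let-7a-5p (1.93 to 3.80) and 26.02-fold over let-7d-5p. Counts of let-7f-5p and let-7a-5p are shared with other copies, on chromosomes X and 8. The miR-17-92 cluster on chromosome 15, known for driving cell growth, held 4.30% ± 2.67, and miR-92a-3p was 105-fold over miR-19b-3p, ranging from 8.84 in library 6 to 385 in library 3. Counts of both arms are shared with their copies in a cluster on chromosome X, which reached 4.28% mostly from the same counts. In library 6 miR-19b-3p held 0.129% against 0.0141% to 0.04005% in the others. miR-143-3p was 97.0-fold over its neighbour miR-145-5p (37.8 to 184), and miR-27b-3p was 11.7-fold over miR-23b-3p (5.96 to 19.5) and 65.5-fold over miR-24-3p. In the cluster on chromosome 4 that makes miR-182, miR-183 and miR-96, miR-182 held 0.451% ± 0.0693 and was 47.5-fold over miR-183-5p (38.6 to 58.9), while miR-96-5p had 16 counts in all.

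Markers of cell types were read as shares of the counts. In whole tissue, fewer cells of a type and less RNA per cell cannot be told apart. The hepatocyte list held 38.0% ± 5.67 (33.2% to 46.6%), and all 13 of its arms in the table had counts in every library. Most of that was miR-192-5p, which is not limited to hepatocytes. Without it in the total the list held 16.2%. miR-802-5p, a liver miRNA tied to glucose handling, held 0.0850% ± 0.0266.

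Stellate cell and fibroblast markers held 4.00% ± 0.313, of which miR-143-3p was 3.81%, while miR-199a-3p held 0.0568% ± 0.00963 and miR-145-5p 0.0443% ± 0.0268. Endothelial markers held 0.842% ± 0.234. These were the arms of miR-126a, encoded within Egfl7, with 0.689% ± 0.213 for miR-126a-5p and 0.153% ± 0.0240 for miR-126a-3p, and miR-126b was listed with no count. Leukocyte markers held 0.336% ± 0.0621, led by miR-142-5p (0.143% ± 0.0731), known from all blood cell lines, miR-146a-5p (0.0937% ± 0.0201), a brake on NF-kB signalling, and miR-150-5p (0.0716% ± 0.0275) of mature lymphocytes. miR-142-5p was highest in libraries 2 and 6, at 0.225% and 0.242%, and at 0.140% or less in the others. Other leukocyte markers did not share this pattern. miR-150-5p was lowest in library 6, at 0.0204% against 0.0641% to 0.0972% in the others. miR-146a-5p and miR-146b-5p together held 0.0877% in library 2, against 0.105% to 0.147% in libraries 3 to 6.

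Bile duct and other epithelial markers held 0.346% ± 0.0372, with miR-31a-5p at 0.196% ± 0.0458, miR-203a-3p at 0.0936% ± 0.0192 and miR-200b-3p at 0.0308% ± 0.0118. miR-375-3p, best known from pancreatic islets, held 0.144%, 0.131%, 0.138%, 0.111%, 0.169% and 0.0327%, with library 6 far below the rest. It made up nearly all of the pancreas and islet list, since miR-216a-5p and miR-217-5p had 3 counts each. Red cell markers held 0.0309% ± 0.0126, with miR-451-5p, which is matured by Argonaute 2 without Dicer, at 0.0199% ± 0.00937. Markers of tissues that liver should lack were at the low end. The neuronal list held 0.0117% ± 0.00345 (215 counts, 172 of them miR-128-3p), and the muscle list 0.00265% ± 0.000976 (45 counts in miR-499-5p and miR-133a-3p). These low shares rest on 5 of 9 listed neuronal arms and 2 of 12 listed muscle arms. The main markers of these tissues, miR-124 and miR-1, were not among the 401 arms of the table. The low shares therefore cannot show that these tissues were absent.

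Lower families of metabolic or growth interest followed. The miR-378 list held 4.30% ± 0.770 and the miR-10/miR-99/miR-100/miR-125 list 4.34% ± 0.785, with library 6 the highest at 5.93% and the others at 3.89% to 4.17%. The miR-23/miR-27/miR-24 list was steady, at 2.29% ± 0.151 (2.14% to 2.53%), whereas the miR-181 list ran from 0.617% in library 4 to 2.25% in library 3 (1.51% ± 0.754). miR-15/miR-16/miR-195/miR-497 held 0.548% ± 0.0980, led by miR-16-5p with 0.401% ± 0.0607. The table had no row for miR-15a-5p, a member of that list. The miR-29 family, which acts on collagen genes, held 0.256% ± 0.0553, 87.8% of it miR-29a-3p. miR-29c-3p held 0.0287% ± 0.0105 and miR-29b-3p 0.00301% ± 0.00286. miR-103-3p and miR-107-3p, which act on insulin signalling, held 0.136% ± 0.0240 together, with miR-103-3p 2.73-fold the higher. miR-221 and miR-222, tied to growth and fibrosis, held 0.0141% ± 0.00301. Of the Dlk1-Dio3 cluster, an imprinted locus active mainly in the embryo and brain, 10 listed arms stood in the table and 9 had a count, 57 counts in all (0.00301% ± 0.00189).

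Both arms were listed under the same precursor name for 125 precursors, and 96 of them had at least 60 counts over the 6 libraries. Precursors whose other arm is named with a locus number were not paired. Among these were let-7f, let-7a, let-7c, miR-92a, miR-181a, miR-30c and miR-125b. The same arm was the higher in all 6 libraries for 84 of the 96 (87.5%), the 5p arm in 48 and the 3p arm in 36. By an exact two-sided sign-flip permutation test of the log2 ratio these 84 reached p = 0.03125, the smallest value 6 libraries allow, and an adjusted p of 0.0357 (Benjamini-Hochberg over 96 precursors). Any precursor with the same arm higher in all 6 libraries gives that smallest p, so the test adds nothing to the count of 84. The sample descriptions carry only 4 different numbers, each followed by a suffix that sets apart libraries with the same number. The meaning of the number and of the suffix is not stated. Were libraries with the same number not independent, 4 units would allow no p below 0.125 and no precursor could pass. The median ratio of the higher to the lower arm was 29.0-fold. It passed 10-fold in 69 precursors and 100-fold in 26, and stayed under 2-fold in 6. Arm ratios are of counts with 0.5 added.

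Among the most abundant precursors, miR-192 gave 99.98% 5p counts. The 3p arm was instead the main one for miR-22 (0.0802% ± 0.0802 5p counts), miR-143 (0.0472% ± 0.0213) and miR-378a (0.282% ± 0.142). miR-21 was 645-fold higher in 5p and miR-10a 5480-fold, the latter over 12 counts of 3p in all. The other arm was not rare everywhere: miR-148a was 25.4-fold higher in 3p, miR-30e 9.45-fold in 5p, miR-28 9.14-fold in 3p and miR-126a 4.38-fold in 5p. miR-148a-5p, the minor arm of miR-148a, still held 0.222% ± 0.0272 of all counts.

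Among the 8 precursors with the most counts, the arm ratio of miR-122 varied most between libraries (SD 1.34 on the log2 scale, against 0.39 to 1.08 for the other 7). Its 5p arm held 90.2% ± 7.31 of the counts of both arms, and the ratio ran from 4.29-fold in library 6 to 33.2-fold in library 3. The shares of the 3p arm were 0.263%, 0.331%, 0.282%, 0.349%, 0.240% and 0.4996%, so the arms moved in opposite directions: libraries 2, 4 and 6 were the lowest in miR-122-5p and the highest in miR-122-3p.

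In 12 precursors no arm was higher in all 6 libraries, with p of 0.0625 or more by the same exact permutation test. miR-151 gave 30.8% ± 16.2 5p counts, with 3p the higher in 5 of 6 libraries (exact permutation p = 0.09375). The share of its 3p arm among all counts varied from 0.139% to 0.966%, that of its 5p arm from 0.142% to 0.235%. miR-423 gave 33.1% ± 11.8 5p counts (exact p = 0.0625, 3p higher in 5 of 6). The ratios nearest 1 were those of miR-455 (48.5% ± 22.3 5p), miR-144 (47.4% ± 10.5), miR-339 (45.4% ± 16.3), miR-106b (45.4% ± 16.9) and miR-361 (62.3% ± 13.8), all from 505 counts or fewer. let-7d (65.7% ± 13.8 5p) and miR-802 (75.1% ± 3.12 5p) had both arms well represented and were higher in 5p in all 6.

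**Figure D3:**
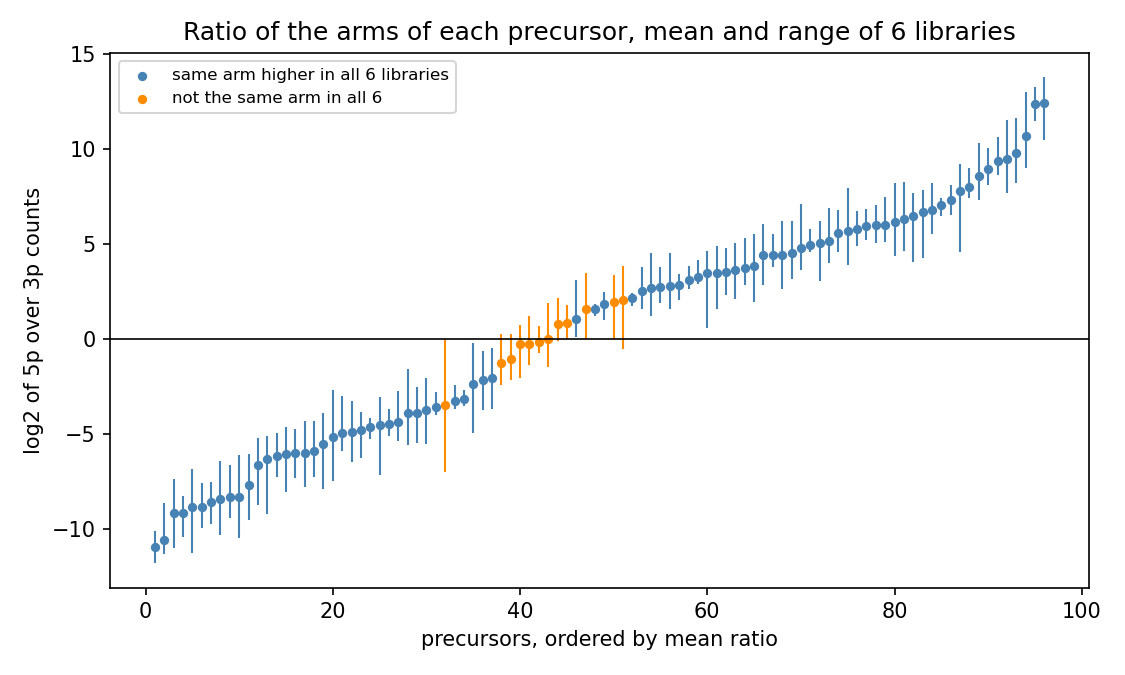
Log2 ratio of 5p to 3p counts with 0.5 added (vertical axis) for the 96 precursors with at least 60 counts, ordered by their mean (horizontal axis), with points at the mean and bars from the lowest to the highest of the 6 lean libraries. The 84 blue precursors lie on 1 side of 0 in all 6 libraries and the 12 orange ones do not.

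Over the whole repertoire, 5p arms held 65.5% ± 2.45 of the counts and 3p arms 33.9% ± 2.44. The rest was in arms named without a side. A first base U, which Argonaute proteins favour, was carried by 41.2% of the arms with a count but by 53.8% ± 4.49 of the counts and by 15 of the 20 highest miRNAs. A first base G was carried by 8.02% of arms, 0.204% ± 0.0835 of counts and none of the 20 highest. C held 29.9% ± 6.30, and most of that was miR-192-5p. The 46 arms with more than 1 genomic location held 13.1% ± 5.38 of the counts, from 6.09% in library 6 to 18.3% in library 5.

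The libraries differed by more than counting error. For the 64 arms with at least 50 counts in every library, the coefficient of variation (CV, the SD over the mean of the shares) had a median of 24.5%, where counting error alone would give a median of 4.71%. It was over 2 times the counting error in 60 of the 64. The steadiest were miR-26b-5p (CV 6.96%, 0.389% to 0.484%), miR-143-3p (8.68%), miR-27b-3p (10.1%), miR-30c-5p (11.7%), miR-148a-5p (12.3%) and miR-30a-3p (13.5%). The least steady were let-7b-5p (71.3%, 0.0412% to 0.324%), miR-423-5p (70.0%), let-7d-3p (69.2%), miR-423-3p (66.6%), miR-122-5p (65.5%) and miR-92a-3p (63.8%). miR-122-5p and miR-92a-3p thus belong to the 8 most abundant and to the 6 most variable miRNAs. The biological coefficient of variation from edgeR, a single value for the spread beyond counting error over 113 arms, was 38.6%, and 32.03% without library 6.

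**Figure D4:**
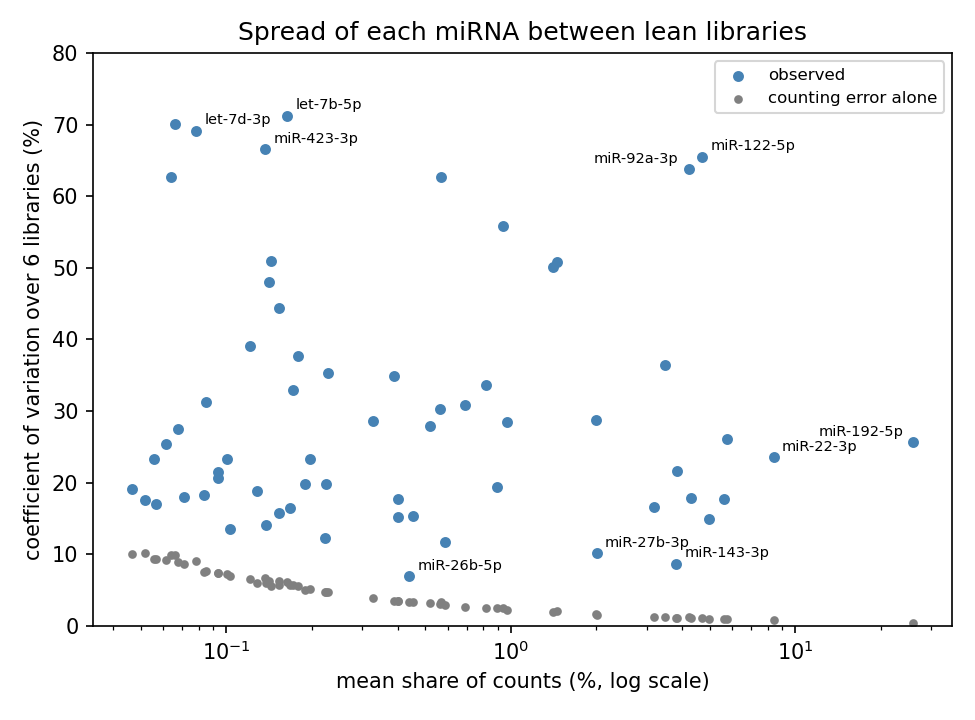
Coefficient of variation of the share over the 6 lean libraries (vertical axis, %) against the mean share (horizontal axis, %, log scale) for the 64 arms with at least 50 counts in every library, with the CV that counting error alone would give in grey. All observed values lie above their grey point, and abundant miRNAs such as miR-122-5p and miR-92a-3p lie as high as scarcer ones.

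The variation was shared between miRNAs. Log2 deviations of the 64 arms from their means were taken, and each library's median deviation over these arms was subtracted. The first principal axis of these deviations took up 70.6% of the variance and the second 19.6%. Libraries 1, 3 and 5 scored 3.29, 3.48 and 3.40 on the first axis, and libraries 2, 4 and 6 scored -3.77, -2.44 and -3.96. At the end high in libraries 1, 3 and 5 stood let-7b-5p, let-7d-3p, miR-423-3p, miR-92a-3p, miR-122-5p, miR-423-5p and miR-151-3p. At the other end stood miR-142-5p, miR-101a-3p, miR-126a-5p, miR-30e-5p, miR-148a-3p and miR-192-5p. All 7 let-7 seed members among the 64 had loadings on the side of libraries 1, 3 and 5, but they did not follow the axis in library 4. There 6 of the 7 lay above their mean, let-7f-5p by 0.39 on the log2 scale, and all 7 were below their mean in libraries 2 and 6. Libraries 4 and 6, though on the same side, had deviations that correlated at only 0.07 across the 64 arms.

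**Figure D5:**
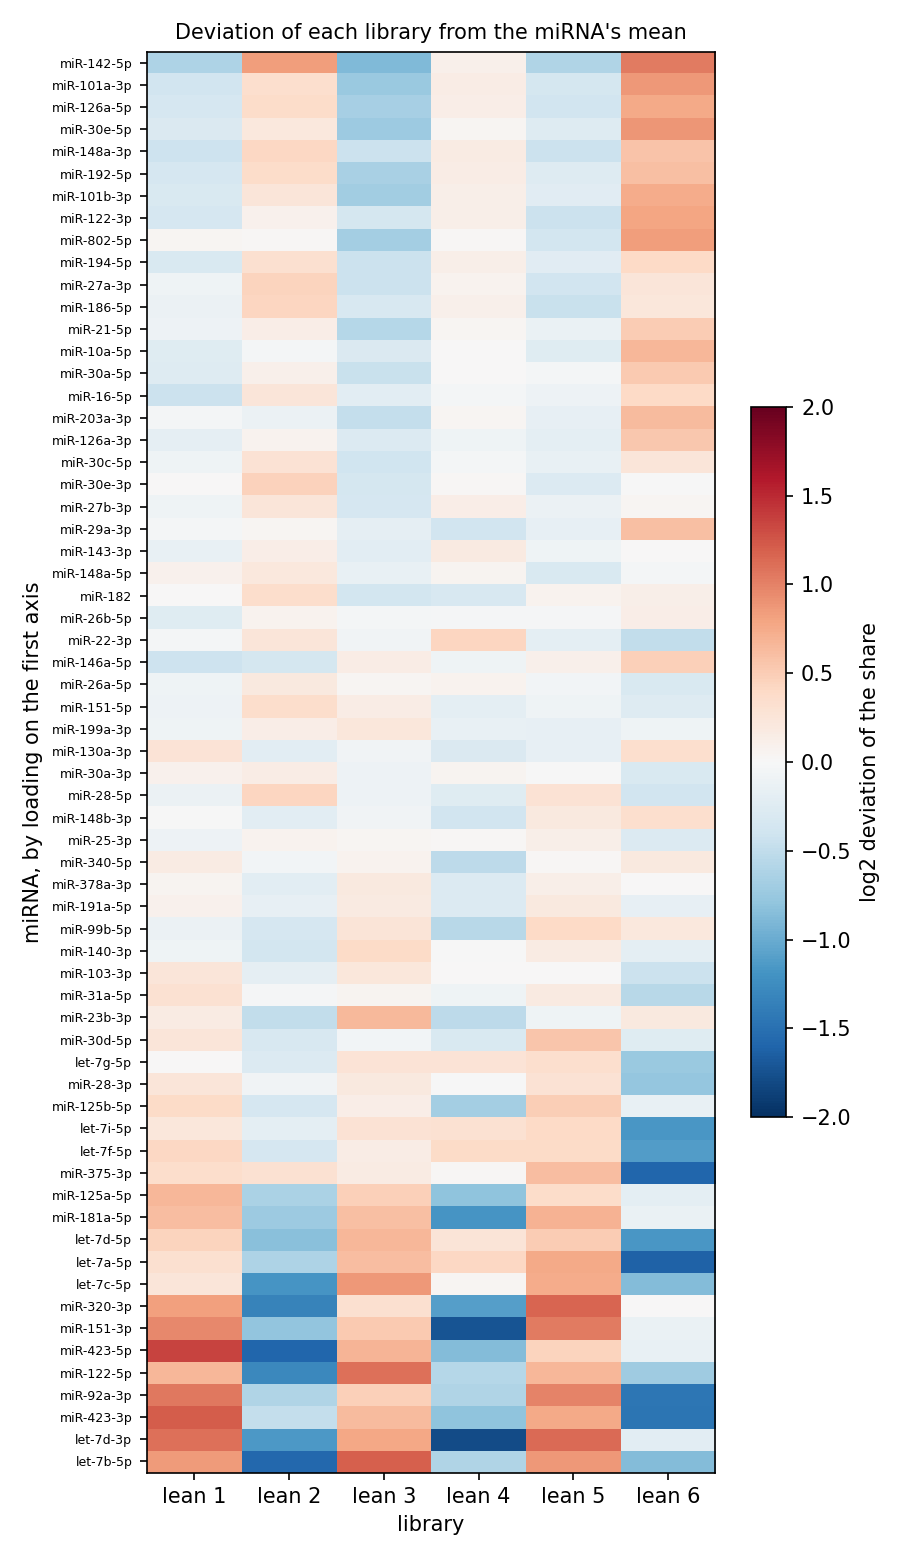
Log2 deviation of each lean library's share from the miRNA's mean, less the library's median deviation (colour, red higher and blue lower), by library (horizontal axis). The vertical axis holds the 64 arms with at least 50 counts in every library, ordered by loading on the first axis. Libraries 1, 3 and 5 are red at the bottom, where let-7b-5p and miR-92a-3p lie, and libraries 2, 4 and 6 are red at the top, where miR-142-5p and miR-101a-3p lie.

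The base composition of the miRNAs moved with this axis. Across the 64 arms, which share the 6 libraries and are not independent, the loading and the GC content had Pearson r = 0.449 and Spearman rho = 0.451. Of the 20 arms with a GC content of 50% or more, 19 lay on the side of libraries 1, 3 and 5, against 16 of the 44 others. The slope of the log2 deviation per 10 percentage points of GC was 0.26, -0.19, 0.24, -0.29, 0.26 and -0.28 in libraries 1 to 6. The AU-rich let-7 miRNAs, such as let-7f-5p with a GC content of 31.8%, had loadings on that side too. The deepest libraries, 2 and 4 with 881457 and 458613 counts, both had negative scores, as did library 6 with 171322, while libraries 1, 3 and 5 held 110357, 198464 and 152413. The part of depth, base composition, library making or the animals themselves in this axis was not tested.

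Of the 4 numbers in the sample descriptions, 2 stand on 2 libraries each, on 1 and 2 and on 4 and 5. Their full labels differ by a suffix. Libraries with the same number lay on opposite sides of the first axis, with correlations of their log2 deviations across the 64 arms of -0.80 and -0.64. Correlations of the log2 shares themselves ran from 0.900 (libraries 3 and 6) to 0.994 (libraries 1 and 5).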

How the data were processed

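The values are estimated counts, which the authors deposited unscaled as 1 table of 401 mature miRNA arms by library. Of the 2406 lean values, 108, in 38 arms, were not whole. Bowtie 1.1.2 and DESeq2 1.18.1 stand in the submitters' processing notes. How the fractions arose, the trimming, build, annotation and counter were not given in the sources used here. Frozen liver gave total RNA, per the labels' protocols, and libraries were made with an Illumina TruSeq RNA kit, and how small RNA was selected is not stated there.

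Counts were rounded and divided by the library total. Means and SDs are over the 6 lean libraries. Depth was 110357 to 881457 counts, and floors and counting errors cover counting error only, since reads that carry no molecular identifier are not independent molecules. Seeds were read from the mature sequences in the deposited table. RefSeq held 363 of the 401 names, all 363 with the same sequence. Arm ratios were tested by exact sign-flip permutation with Benjamini-Hochberg adjustment at 0.05, which gave the only p-values besides those of the chi-square test between libraries. Spread was taken from edgeR 4.0.16 in R 4.3.3 with TMM scaling and an intercept alone, over arms with at least 10 counts in every library. DESeq2 1.42.0 size factors were an alternative. The other steps used Python 3.11.15 with NumPy 2.4.6, SciPy 1.17.1 and pandas 2.3.3. The scripts were tested on simulated data.

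Named miRNAs were the 20 of the highest mean share, up to 4 members of each list, the 8 precursors of both arms with the most counts and the 5 with a ratio nearest 1, the 6 least and 6 most variable, and members of the 3 largest seed families and clusters. Others (among them miR-28, miR-151, miR-423, miR-802, let-7d and the neighbours in clusters and on the first axis) were chosen after their values were seen. The lean group, the lists and the rules were chosen with earlier results of these data known. Leaving out each library, other scalings, filters and pseudocounts were tried as alternatives.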

Additional observations from a re-analysis of the deposited data

Results flagged for a closer look

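Of 146 shares, arm ratios and library measures examined over the 6 lean libraries, 17 had 1 library whose gap to the nearest of the others was more than 0.625 of the whole range. Chance alone gives such a gap in about 5% of groups when the values are normally distributed. An arm with 1 count in 1 library and none in the others is always flagged, so the 5% does not hold for shares that rest on few counts. In 12 of the 17 the library was number 6, in 4 number 5 and in 1 number 2. The measures share libraries and overlap, so the flags are not independent.

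Library 6 was the highest in miR-10a-5p (5.50%, others 3.29% to 3.85%), in the miR-10/miR-99/miR-100/miR-125 list that contains it (5.93%, others 3.89% to 4.17%), in miR-126a-3p (0.200%), miR-195-5p (0.141%, others 0.0276% to 0.0504%) and miR-19b-3p (0.129%). It was also the highest in miR-451-5p (0.0379%), miR-29b-3p (0.00876%) and the miR-29 list (0.361%), and the lowest in miR-30a-3p (0.0753%, others 0.104% to 0.113%). Its log2 ratio of 5p to 3p counts of miR-22 was -8.65, against -11.36 to -10.54 in the others. Of its counts 0.372% began with G (others 0.156% to 0.188%), and 70.2% were 5p arms (others 63.2% to 65.6%).

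Library 5 was the highest in the Dlk1-Dio3 list (0.00656%, others 0.000906% to 0.00302%) and in 3 of its members, miR-127-3p (0.00394%), miR-434-3p (0.00197%) and miR-409a-3p (0.000656%, which is 1 count, with no count in the others). These flags of library 5 rest on very few counts. The whole list had 57 counts over the 6 libraries, and the share of miR-434-3p is the level that 3 counts give in library 5 (19.7 CPM). Library 2 was the highest in miR-429 (0.0115%, others 0.00504% to 0.00725%).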

How the results depend on the processing

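No paired analysis was possible because a single group was described and no groups were compared. Of the 1565 alternative values, 125 moved. The limit was the spread between libraries for a share or arm ratio, and 1.5 times for a count. For coefficients of variation and the variance on the first axis it was the spread of the values with 1 library left out. Leaving out 1 of the 6 libraries cannot shift a mean share or arm ratio by as much as the spread between libraries. Such values could not count as moved, so 125 of 1565 does not measure robustness. The rule used could not show a reversal of direction. Shares, counts and spreads are all positive, and only arm ratios with 1 sign in every library were eligible. With miR-192-5p left out of the total, the 10 most abundant miRNAs held 66.4%, the hepatocyte list 16.2% and the largest seed family 11.4% (miR-22-3p). With arms of more than 1 genomic location left out, the 10 most abundant held 81.2%. Asking for at least 10 counts in every library left 113 miRNAs in place of 201. The coefficients of variation given for the steadiest and least steady miRNAs depend on the scaling by library totals. With TMM-scaled totals 4 of them moved and 8 did not, and with DESeq2 size factors 5 moved. Leaving out 1 library in turn moved the biological coefficient of variation between 32.03% (without library 6) and 40.5%, the share of variance on the first axis between 67.6% and 83.9% (an alternative added after the data were seen), and the precursors with the same arm higher throughout between 77 of 87 and 87 of 96. With no minimum count 90 of 123 precursors had the same arm higher, and with at least 300 counts 62 of 68.

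Depth limits what can be said of the 265 arms under 0.01%, and a count of 0 in the library of 110357 counts allows up to 27.2 CPM. With 6 libraries no exact test can go below p = 0.03125, and 5 libraries cannot go below 0.0625.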
